A study of Mus musculus with 11 samples.

Results

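The 10 imprinted growth genes described here were Igf2, Dlk1, Ndn, Peg3, Mest and Plagl1, which are expressed from the paternal allele, and H19, Igf2r, Grb10 and Meg3, which in most tissues are expressed from the maternal allele. They were chosen by symbol, and all 10 were found among the 24064 genes of the gated files and the 23420 gene symbols of the unfractionated files. Where a gene had several transcripts, the one that averaged highest in the gated files stood for it. The samples were haematopoietic stem cells (HSCs), the source of all blood lineages, from livers of wild-type C57BL/6 mice on postnatal day 0. They were sorted as lineage-negative, Sca1+, cKit+, CD150+ and CD48-, at 100 to 200 cells per library, and sequenced by Smart-seq2, a full-length cDNA method for small inputs. The FSC-A High group (4 libraries) and the FSC-A Low group (3) were gated on the area of the forward scatter signal, which a cytometer reads as a rough measure of how big a cell is. The WT HSC group (4) was taken without a named scatter gate. No label ties a library to an animal of its own, and the p-values therefore speak of the spread between libraries, which may be technical.

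An imprinted gene is transcribed mainly from the allele of 1 parent, as set by DNA methylation laid down in the egg or sperm. IGF2 is a growth factor of the fetus, IGF2R removes it by carrying it to lysosomes, and GRB10 is an adaptor that dampens signalling by the insulin and IGF1 receptors. Igf2 and H19 share enhancers and are switched by a methylation-sensitive insulator that binds CTCF, while Dlk1 and Meg3 are the paternally and maternally expressed neighbours of another imprinted cluster. Several of these genes, Ndn and H19 among them, have been linked to the quiescence of HSCs.

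H19 (chromosome 7, 142575530 to 142578146 on GRCm38, the assembly that mm10 denotes) is a long noncoding RNA whose first exon holds the microRNA miR-675. The hairpin lies at 142577064 to 142577147, inside the H19 span, so reads of its entry cannot be told apart from those of H19. The mature forms, from RefSeq on GRCm38.p6, are shown because this entry carried reads in all 7 gated libraries. Capitals mark the seed, bases 2 to 8.
mmu-miR-675-5p: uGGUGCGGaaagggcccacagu
mmu-miR-675-3p: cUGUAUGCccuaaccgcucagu
The Mir675 entry stood at 43.9, 53.1, 52.5 and 44.7 RPKM in FSC-A High, against 63.0, 65.2 and 26.9 RPKM in FSC-A Low. RPKM is the number of reads scaled for transcript length and library depth. The lowest value, in FSC-A Low library 3, fell in the library where H19 was also lowest. The highest Mir675 values, in FSC-A Low libraries 1 and 2, were not matched in this way, as H19 was highest in FSC-A High library 4, at 31.5 RPKM.

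Promoter windows of 300 bases, 250 before and 50 after an annotated start, were taken from RefSeq on GRCm38.p6 for 9 of the members. The windows of 3 genes are shown. Mest and Plagl1 are among the members whose promoters are known imprint-bearing regions methylated in the egg, and Ndn is the most abundant member. Capitals mark matches to TGCCGC, the hexamer bound in methylated form by ZFP57, a zinc finger protein that protects imprints, read on either strand (as GCGGCA on the other). The sequences run 5′ to 3′ along the gene.
Mest, chr6:30737800-30738099, plus strand: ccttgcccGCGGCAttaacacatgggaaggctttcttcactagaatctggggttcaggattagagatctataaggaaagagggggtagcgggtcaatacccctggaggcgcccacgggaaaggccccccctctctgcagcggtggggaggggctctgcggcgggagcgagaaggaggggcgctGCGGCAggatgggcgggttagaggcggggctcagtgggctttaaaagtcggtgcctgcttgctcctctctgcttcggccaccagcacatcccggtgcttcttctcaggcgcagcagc
Plagl1, chr10:13090582-13090881, plus strand: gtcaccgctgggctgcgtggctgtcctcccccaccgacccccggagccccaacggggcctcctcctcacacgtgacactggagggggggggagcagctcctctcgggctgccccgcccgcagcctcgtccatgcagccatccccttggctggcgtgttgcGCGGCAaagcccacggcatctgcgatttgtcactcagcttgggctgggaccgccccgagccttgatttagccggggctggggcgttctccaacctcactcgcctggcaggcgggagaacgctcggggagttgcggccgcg
Ndn, chr7:62348027-62348326, plus strand: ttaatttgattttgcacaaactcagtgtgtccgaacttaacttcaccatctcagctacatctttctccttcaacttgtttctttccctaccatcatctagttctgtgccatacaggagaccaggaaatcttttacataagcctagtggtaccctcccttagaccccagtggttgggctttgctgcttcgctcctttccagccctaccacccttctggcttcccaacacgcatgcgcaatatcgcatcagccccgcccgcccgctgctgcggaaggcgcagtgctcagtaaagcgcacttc
The Mest window, around the start at 30738050, held 2 matches and 17 CpG dinucleotides, the Plagl1 window 1 match and 26 CpGs, and the Ndn window no match and 11 CpGs. Among 32851 promoter windows of the same length, 11.6% held at least 1 match and the median was 7 CpGs. Of the 16 windows of the members, some of which overlap, 6 held a match (37.5%). Among the genes not shown, the windows of Peg3 (13 CpGs), Igf2r (34 CpGs) and Dlk1 (9 CpGs) held no match. Grb10, Igf2 and Meg3 had windows with and without a match. A match is only a description of these letters.

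The labelled cell type was checked against marker genes. Of the HSC and sort markers, Cd34 stood at 119 to 139 RPKM in FSC-A High, against 136 to 154 RPKM in FSC-A Low, and Procr, which encodes the endothelial protein C receptor, at 20.3 to 33.6 RPKM in FSC-A High, against 20.9 to 22.6 RPKM in FSC-A Low. Kit, the receptor used in the sort, was detected in every library and was lower in FSC-A High (limma, adjusted p below 0.05), at 17.9 to 25.2 RPKM, against 48.8 to 61.2 RPKM in FSC-A Low. Ptprc, which encodes the pan-leukocyte antigen CD45, and the HSC transcription factor genes Mecom and Hlf were also lower, Ptprc at 3.10 to 3.52 RPKM in FSC-A High, against 10.6 to 21.8 RPKM in FSC-A Low. The hepatoblast and hepatocyte list, a type in which Igf2, H19 and Dlk1 are abundant in fetal liver, summed to 63.1 to 76.6 RPKM in FSC-A High, against 57.1 to 82.2 RPKM in FSC-A Low. Most of that was Trf, which encodes transferrin, at 45.0 to 52.1 RPKM in FSC-A High, against 43.6 to 64.6 RPKM in FSC-A Low. Alb, which encodes albumin, stood at no more than 1.10 RPKM in FSC-A High, against 1.56 RPKM in FSC-A Low. The mesenchymal list reached at most 0.994 RPKM in FSC-A High, against 0.628 RPKM in FSC-A Low, with Col3a1 and Des at 0 in all 7 libraries. Macrophage genes summed to 6.22 to 14.9 RPKM in FSC-A High, against 0 to 11.3 RPKM in FSC-A Low. Erythroid genes summed to 110 to 237 RPKM in FSC-A High, against 69.0 to 102 RPKM in FSC-A Low, mostly Hbb-bt. The part of these cells and genes in the results below was not tested. In samples of many cells, fewer cells of a type and less RNA per cell cannot be told apart. Estimated depth was 65.9 M to 85.7 M reads in FSC-A High, against 69.8 M to 98.2 M in FSC-A Low.

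Ndn (chromosome 7, 62348277 to 62349928) encodes necdin, a protein of the MAGE family that restrains proliferation, and was the most abundant of the 10 genes. It stood at 30.6, 43.1, 35.4 and 39.4 RPKM in FSC-A High, against 33.1, 42.2 and 35.8 RPKM in FSC-A Low. The groups overlapped fully, and the highest library stood at 1.41 times the lowest. The means were 37.1 ± 5.38 RPKM (SD, n = 4) in FSC-A High, against 37.0 ± 4.67 RPKM (SD, n = 3) in FSC-A Low. Its mean level exceeded that of 90.2% of all genes. The tested genes that followed Ndn most closely over the 7 libraries were 1810013L24Rik, Mtfp1 and Clk2, with Pearson's r of 0.96, 0.93 and 0.93. They are the 3 highest values over all genes tested, over libraries that share a sort, and are given as a description only.

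Dlk1 (chromosome 12, 109452485 to 109463336), a membrane protein related to the Notch ligands, stood at 5.20, 4.76, 3.84 and 2.91 RPKM in FSC-A High, against 5.57, 5.95 and 5.05 RPKM in FSC-A Low. FSC-A High library 1 lay within the FSC-A Low range and the other 3 lay below it. The means were 4.18 ± 1.02 RPKM (SD, n = 4) in FSC-A High, against 5.52 ± 0.454 RPKM (SD, n = 3) in FSC-A Low. Igf2 (chromosome 7, 142650768 to 142666816) averaged less than Dlk1. It stood at 4.31, 2.38, 2.57 and 4.32 RPKM in FSC-A High, against 3.91, 2.31 and 2.10 RPKM in FSC-A Low. Each group held libraries near 4 and near 2 RPKM, so the groups overlapped. An antisense RNA, Igf2os, overlaps Igf2 and reached at most 0.220 RPKM in FSC-A High, against 0.0959 RPKM in FSC-A Low. No source used here says that counting was strand-specific, so reads of overlapping genes cannot be told apart.

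Of the maternally expressed genes, H19 was the most abundant, at 20.7, 26.8, 29.7 and 31.5 RPKM in FSC-A High, against 24.8, 20.1 and 11.9 RPKM in FSC-A Low. The 3 highest libraries were FSC-A High and the lowest were FSC-A Low libraries 3 and 2. The means were 27.2 ± 4.74 RPKM (SD, n = 4) in FSC-A High, against 18.9 ± 6.50 RPKM (SD, n = 3) in FSC-A Low.

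Grb10 (chromosome 11, 11930499 to 12037428) stood at 11.3, 6.34, 7.05 and 6.62 RPKM in FSC-A High, against 8.39, 15.5 and 30.9 RPKM in FSC-A Low. The groups overlapped through FSC-A High library 1, which lay above FSC-A Low library 1. FSC-A Low library 3 held the highest Grb10 value and the lowest H19 value of the 7. The Grb10 means were 7.81 ± 2.32 RPKM (SD, n = 4) in FSC-A High, against 18.3 ± 11.5 RPKM (SD, n = 3) in FSC-A Low. Among the 1820 tested genes of a like mean level, within 0.5 on the log2 scale, 88.4% had a smaller spread within groups than Grb10. For Dlk1 that share was 9.68% of 1922 genes, and for Ndn 22.3% of 1312.

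Meg3 (chromosome 12, 109540996 to 109571729), a long noncoding RNA, stood at 3.30, 2.79, 3.43 and 5.54 RPKM in FSC-A High, against 5.35, 3.88 and 7.16 RPKM in FSC-A Low. FSC-A High library 4 lay inside the range of FSC-A Low and the other 3 lay below it. The other 2 transcripts of Meg3 stood lower, at no more than 0.524 RPKM in FSC-A High, against 0.906 RPKM in FSC-A Low. The microRNA entry Mir1906-1 (109544541 to 109544620) lies in the Meg3 span and had the same value in every library as its copy Mir1906-2 on the X chromosome, so the 2 loci cannot be told apart.

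In order of mean level over the 7 gated libraries, the genes ran Ndn, H19, Grb10, Dlk1, Meg3, Igf2, Mest, Igf2r, Plagl1 and Peg3. Only between Grb10, at 6.34 RPKM or more, and Dlk1, at 5.95 RPKM or less, did neighbours not overlap in their ranges.

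**Figure D1:**
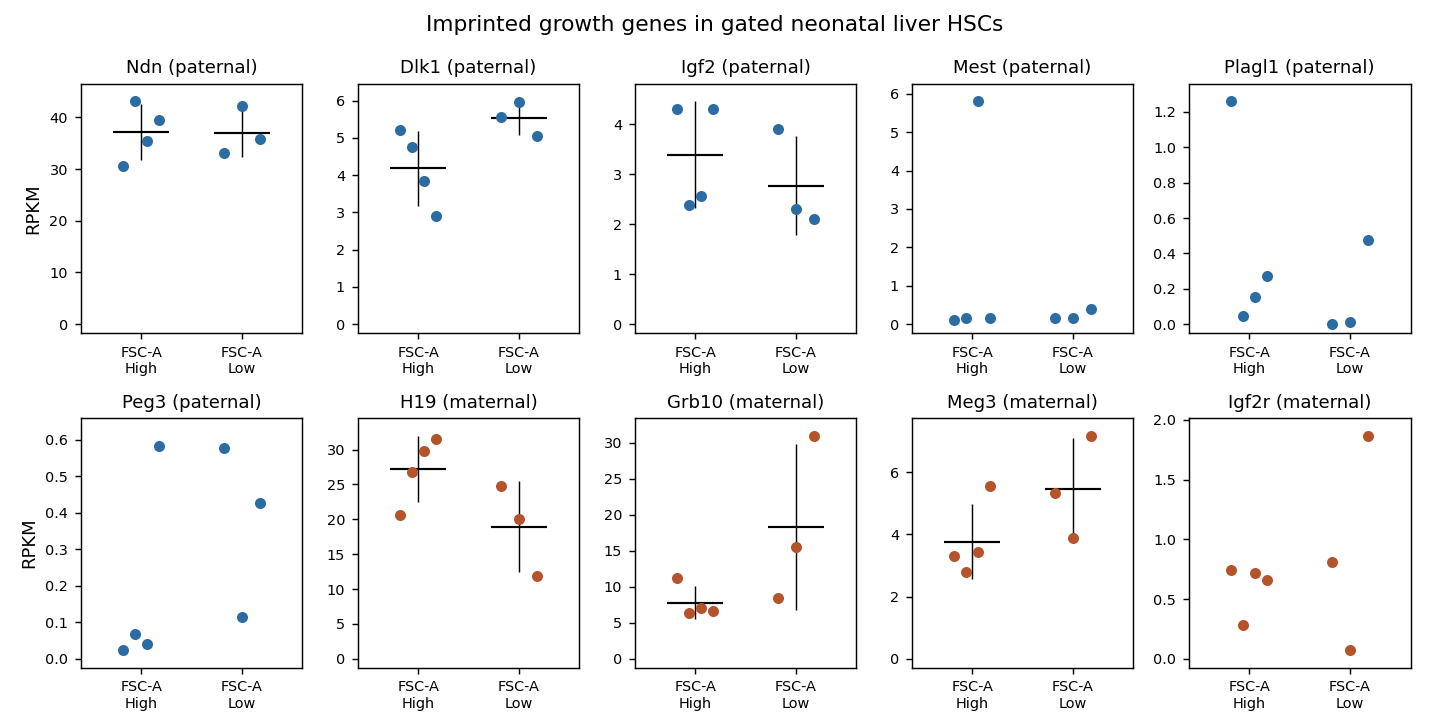
RPKM of the 10 genes in each FSC-A High and FSC-A Low library (points, linear axes that differ between panels), blue for paternally and orange for maternally expressed genes; horizontal lines are means and vertical lines SD (n = 4 and 3), drawn for the 6 genes tested. The groups overlap for all 10 genes, and Ndn averages 37.1 RPKM in FSC-A High, against 37.0 RPKM in FSC-A Low.

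The gated libraries ask how transcripts differ with forward scatter. Of the 6 members that could be tested, none passed an adjusted p of 0.05 between FSC-A High and FSC-A Low (limma on log2(RPKM + 1), Benjamini-Hochberg over all genes tested), whereas 27.3% of the 10619 genes tested did (15.6% higher and 11.7% lower). These 6 reached the filter of at least 1 RPKM in at least 3 of the 7 libraries, and 4 did not (Igf2r, Peg3, Mest and Plagl1). At an unadjusted p below 0.05 there was 1, Grb10. All 6 tested members had overlapping groups, beside 34.9% of the genes tested whose groups did not overlap. The groups of the 4 untested members overlapped too, at levels below the filter. Of the 3 paternally expressed genes tested, 2 had positive and 1 a negative log2 difference, with a median of 0.00. Of the 3 maternally expressed genes tested, 1 was positive and 2 negative, with a median of -0.44, and the median over all genes tested was -0.04. Summed over the 6 paternally expressed genes, the level was 46.9 ± 3.83 RPKM (SD, n = 4) in FSC-A High, against 46.1 ± 4.05 RPKM (SD, n = 3) in FSC-A Low. Summed over the 4 maternally expressed genes it was 39.4 ± 4.00 RPKM in FSC-A High, against 43.6 ± 7.17 RPKM in FSC-A Low.

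The intervals of these differences were wide for most members. Ndn had a log2 difference of 0.00 (SE 0.19, 95% interval -0.41 to 0.41, limma adjusted p = 0.999), so a change of that size in either direction is inside its interval. Dlk1 had a log2 difference of -0.35 (SE 0.30, adjusted p = 0.414) and Igf2 one of 0.22 (-0.51 to 0.94, adjusted p = 0.675). With each library scaled to its total of gene RPKM, the median of all genes moved to -0.30, and the difference of Igf2 became -0.01. H19 had a log2 difference of 0.54 (SE 0.26, interval -0.02 to 1.10, adjusted p = 0.145), and without FSC-A Low library 3 it was 0.25. Meg3 had one of -0.44 (interval -1.14 to 0.27, adjusted p = 0.350).

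Grb10 had the largest difference of the 6, -0.98 on the log2 scale (SE 0.38, interval -1.80 to -0.17, limma adjusted p = 0.0694). This value moved with single libraries. Without FSC-A Low library 3 it was -0.53 (adjusted p = 0.303). Without FSC-A Low library 1 it was -1.41 (adjusted p = 0.0134), and without FSC-A High library 1 it was -1.15 (adjusted p = 0.0495). With each library corrected for a trend over transcript length and GC content it was -0.60 (adjusted p = 0.263).

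Ratios were compared for pairs that share an imprinted domain or a ligand. The tests used differences of log2(RPKM + 1) within a library, which the pseudocount pulls towards 0 for low genes, most of all Igf2r. The linear ratios are given as a description. The H19 level was 4.79, 11.3, 11.6 and 7.29 times that of Igf2 in FSC-A High, against 6.34, 8.69 and 5.68 times in FSC-A Low. On the log2(RPKM + 1) scale the ratio averaged 2.70 ± 0.50 in FSC-A High, against 2.37 ± 0.31 in FSC-A Low (SD, n = 4 and 3, two-sided exact permutation p = 0.4, adjusted p = 0.8 over 3 ratios). H19 exceeded Igf2 in all 7 libraries, and the difference between the groups was within the spread of the libraries. Meg3 was 0.635, 0.586, 0.894 and 1.91 times Dlk1 in FSC-A High, against 0.959, 0.651 and 1.42 times in FSC-A Low. On the log2(RPKM + 1) scale the ratio averaged -0.13 ± 0.62 in FSC-A High, against -0.04 ± 0.47 in FSC-A Low (exact permutation p = 0.8, adjusted p = 0.8). Igf2r was 0.173, 0.119, 0.279 and 0.153 times Igf2 in FSC-A High, against 0.207, 0.0306 and 0.887 times in FSC-A Low. On the log2(RPKM + 1) scale the difference between the groups was -0.37 (exact permutation p = 0.571, adjusted p = 0.8). The smallest p that 4 against 3 libraries allow is 0.0286.

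The 4 genes that were not tested stood below 1 RPKM in at least 6 of the 7 libraries. Mest (chromosome 6, 30733506 to 30748466), which encodes a protein with a hydrolase fold, stood at 0.0957, 0.171, 5.80 and 0.162 RPKM in FSC-A High, against 0.169, 0.162 and 0.386 RPKM in FSC-A Low. FSC-A High library 3 alone stood apart, with about 991 estimated reads against 15 to 64 in the other libraries. All 3 Mest transcripts showed it, and the microRNA entry Mir335 within Mest was at 0 in all 7. The overlapping gene Copg2 stood at 7.02 RPKM in that library, at 4.16 to 4.81 RPKM in the other FSC-A High libraries and at 2.82 to 4.57 RPKM in FSC-A Low. Only 3 of the 24064 genes had at least 5 RPKM in that library and at least 10 times their value in each of the other 6, and Mest was among them. Igfbp7, an IGF binding protein gene that is strongly expressed in blood vessels, met it too, at 6.48 RPKM in that library, at 0.0544 to 0.115 RPKM in the other FSC-A High libraries and at 0.116 to 0.335 RPKM in FSC-A Low. This criterion was set after the values were seen.

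The same library had the highest level of the liver endothelial marker list, a summed 14.9 RPKM, against 1.61 to 2.44 RPKM in the other FSC-A High libraries and 0.867 to 4.03 RPKM in FSC-A Low. Clec4g, a lectin of liver sinusoidal endothelium, stood at 7.78 RPKM there, at 0.490 to 1.38 RPKM in the other FSC-A High libraries and at 0.473 to 1.42 RPKM in FSC-A Low. Stab2, a scavenger receptor of the same cells, stood at 1.09 RPKM there and at 0 to 0.0623 RPKM in the other 3. Clec4g was the largest part of the sum, and Stab1, Fcgr2b and Bmp2 were also highest in that library. The rest of the list did not share this pattern. Cdh5, which encodes the endothelial cadherin, stood at 0.0597 RPKM there and at 0.0206 to 0.382 RPKM in the other FSC-A High libraries. Lyve1 was highest in FSC-A High library 2, and Kdr and Oit3 were highest in FSC-A Low library 2. The part of such cells in the Mest value was not tested.

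**Figure D2:**
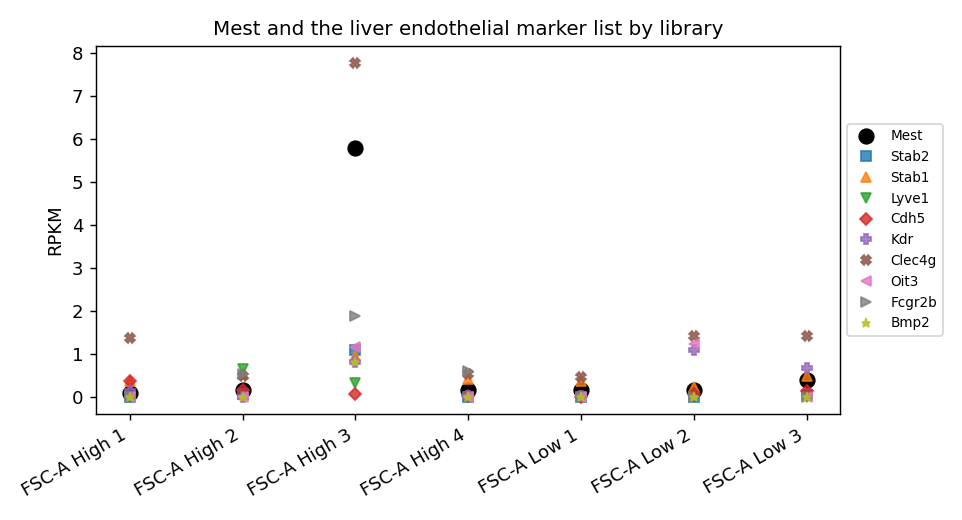
RPKM of Mest (black) and of the 9 genes of the liver endothelial marker list in each gated library (linear axis). Mest and Clec4g stand at 5.80 and 7.78 RPKM in FSC-A High library 3, above all other libraries.

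Plagl1 (chromosome 10, 13090832 to 13131694), a zinc finger transcription factor that acts on other imprinted genes, stood at 1.26, 0.0446, 0.152 and 0.270 RPKM in FSC-A High, against 0, 0.0136 and 0.474 RPKM in FSC-A Low. It was highest in FSC-A High library 1, and the 0 in FSC-A Low library 1 allows up to 0.00791 RPKM, that is 3 reads at the estimated depth. Peg3 (chromosome 7, 6703892 to 6730462), another zinc finger factor, stood at 0.0253, 0.0672, 0.0401 and 0.583 RPKM in FSC-A High, against 0.579, 0.114 and 0.426 RPKM in FSC-A Low. All FSC-A Low libraries lay above 3 of the 4 FSC-A High libraries, and the remaining one was the highest of the 7. Igf2r (chromosome 17, 12682406 to 12769706) stood at 0.747, 0.282, 0.718 and 0.660 RPKM in FSC-A High, against 0.809, 0.0707 and 1.86 RPKM in FSC-A Low, so that FSC-A Low held both extremes. Airn, the paternally expressed RNA that overlaps Igf2r in antisense, stood at 0.295, 2.03, 2.71 and 3.72 RPKM in FSC-A High, against 0.437, 1.28 and 1.29 RPKM in FSC-A Low. Without a filter on low values, none of the 4 members passed (limma adjusted p from 0.507 for Peg3 to 0.810 for Igf2r).

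Of 30 further maternally expressed genes with a row, 17 were tested, of which 2 rose, 4 fell and 11 did not pass, with a median log2 difference of 0.05. Gnas, which encodes the stimulatory G protein alpha subunit and is imprinted only in some tissues and transcripts, averaged 548 ± 142 RPKM over FSC-A High libraries (SD, n = 4), against 1519 ± 229 RPKM (SD, n = 3) in FSC-A Low. Its log2 difference was -1.50 (SE 0.18, limma adjusted p = 1.05e-04). Cdkn1c, which encodes the cell cycle inhibitor p57, stood at 96.7 to 130 RPKM in FSC-A High, against 202 to 240 RPKM in FSC-A Low (log2 difference -0.96). Tssc4 rose, at 73.5 ± 9.12 RPKM in FSC-A High, against 35.7 ± 5.63 RPKM in FSC-A Low (1.02), as did Commd1, at 286 ± 37.7 RPKM in FSC-A High, against 160 ± 45.3 RPKM in FSC-A Low (0.86, adjusted p = 0.00540, or 0.0511 without a filter on low values). The others that fell were Ube3a (-1.24), a ubiquitin ligase gene, and Trappc9 (-1.19), named after their values were seen. Trappc9 did not pass with the length and GC trend removed (0.0625), without a filter on low values (0.0636) or without FSC-A Low library 1 (0.0580). In all, 6 of 17 maternally expressed genes passed and, as given next, 0 of 10 paternally expressed ones, beside 27.3% of all genes tested, so that the imprinted genes together lay near the background. No allele was measured, so these data do not show which allele of a listed gene was expressed in these cells. The counts therefore say nothing of parental origin.

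Of 24 further paternally expressed genes with a row, 10 were tested and none passed (limma), with 3 at an unadjusted p below 0.05 and a median of -0.03. Snrpn and Snurf, both among the 10, had nearly the same values in every library, so they do not count as separate results. Inpp5f, a phosphoinositide phosphatase gene, stood at 2.11 ± 0.230 RPKM in FSC-A High, against 4.43 ± 0.992 RPKM in FSC-A Low (log2 difference -0.79, adjusted p = 0.0711). Peg12 stood at 14.1 ± 4.84 RPKM in FSC-A High, against 7.98 ± 0.616 RPKM in FSC-A Low (0.70, adjusted p = 0.0847). Each of them had groups that did not overlap. Inpp5f passed with library totals as the scale (adjusted p = 0.0229) and with no intensity trend in limma (0.0237), and Peg12 with the length and GC trend removed (0.0416) or without FSC-A High library 1 (0.0414). Impact passed as lower with library totals (0.0462) or without FSC-A High library 4 (0.0491), and Mkrn3 as lower without FSC-A Low library 3 (0.0323).

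In the insulin-like growth factor axis, 10 of 24 genes were tested, of which 2 fell, none rose and 8 did not pass, beside 27.3% called over all genes (11.7% lower). The median was -0.36, and -0.06 with the length and GC trend removed, where 1 gene fell. Igf2bp2, an RNA-binding protein of Igf2 transcripts, stood at 25.9 ± 1.65 RPKM in FSC-A High, against 49.1 ± 6.82 RPKM in FSC-A Low (-0.89, adjusted p = 0.00305). Shc1, an adaptor of growth factor receptors, stood at 12.3 ± 1.96 RPKM in FSC-A High, against 23.1 ± 5.31 RPKM in FSC-A Low (-0.85, adjusted p = 0.0198), and no longer passed with the length and GC trend removed (0.0700), nor without FSC-A High library 2 or 3 or FSC-A Low library 1 or 2 (0.0537 to 0.0845). The ligand Igf1 and the receptors were low: Igf1 averaged 2.11 RPKM in FSC-A High, against 2.39 RPKM in FSC-A Low, Igf1r 1.92 RPKM in FSC-A High, against 3.02 RPKM in FSC-A Low, and the insulin receptor gene Insr did not reach the filter. Igfbp1, Igfbp3 and Igfbp5, which encode IGF binding proteins, were at 0 in all 7 libraries. Igfbp4, of the same family, was abundant, at 47.0 to 74.5 RPKM in FSC-A High, against 74.3 to 85.0 RPKM in FSC-A Low (-0.52, adjusted p = 0.0503). It passed as lower with library totals as the scale (0.00656) and without FSC-A High library 1 (0.0108), among other alternatives. The ligand, receptor and binding protein genes were named after their values were seen.

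Of 17 factors that maintain imprints or act at the Igf2 and H19 insulator, 13 were tested, of which 4 fell, none rose and 9 did not pass, beside 27.3% called over all genes, with a median of -0.03. With the length and GC trend removed, 1 fell and 1 rose, and the median was 0.23. The factor that rose there was Hells, a chromatin remodeller that supports DNA methylation (0.80, adjusted p = 0.0241, in place of 0.52 and 0.178). Dnmt3b, a de novo DNA methyltransferase, stood at 37.4 ± 9.45 RPKM in FSC-A High, against 89.4 ± 4.92 RPKM in FSC-A Low (-1.26, adjusted p = 6.30e-04). Ctcf, the insulator protein itself, stood at 5.27 ± 1.77 RPKM in FSC-A High, against 10.9 ± 0.925 RPKM in FSC-A Low (-0.97, adjusted p = 0.0271). Trim28, the corepressor that ZFP57 recruits, had a log2 difference of -0.60 and Dnmt3a one of -0.68. With the length and GC trend removed, Ctcf (adjusted p = 0.0843), Trim28 (-0.11, 0.689) and Dnmt3a (-0.34, 0.195) no longer passed. With a library left out, Ctcf passed only without FSC-A High library 3 and Dnmt3a only without FSC-A High library 4, and Trim28 did not pass without FSC-A High library 2 or FSC-A Low library 2 or 3, nor without a filter on low values (0.0531). The count of factors that fell was then 1 to 3, and Dnmt3b passed in each of these fits. Of the 12 microRNA entries, 8 were at 0 in all 7 libraries and 3 were tested. Mir1906-1 and its copy passed as lower (-1.27, adjusted p = 0.0309), but not without a filter on low values (0.110) nor without FSC-A High library 2, 3 or 4 or FSC-A Low library 2 or 3 (0.0544 to 0.114), while Mir675 had a difference of 0.01.

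**Figure D3:**
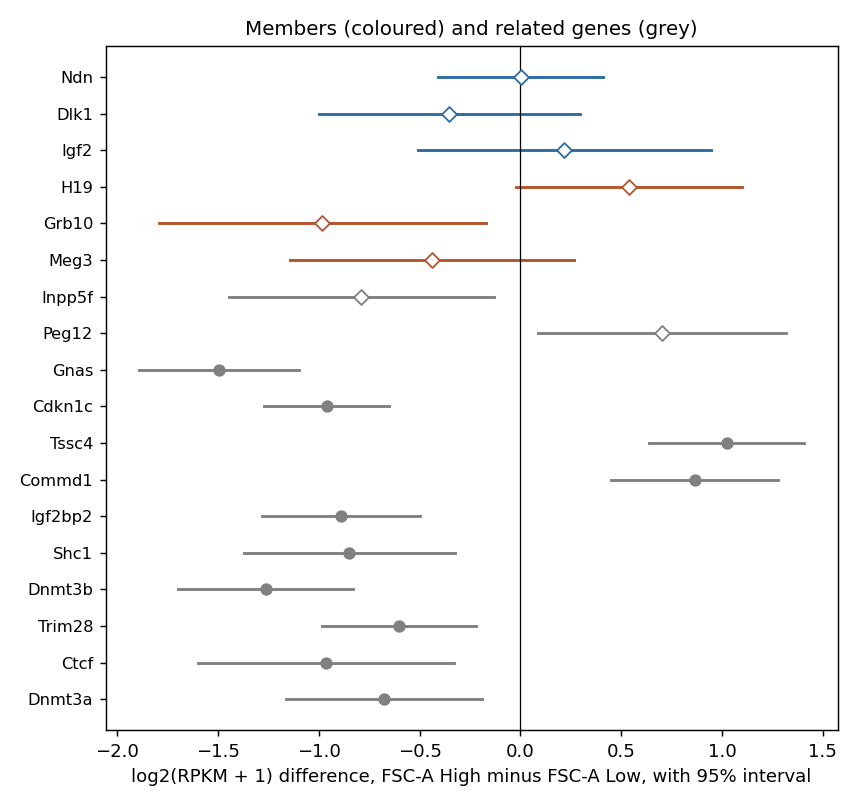
Differences in log2(RPKM + 1), FSC-A High minus FSC-A Low, with 95% intervals from limma, for the 6 members tested (blue paternally, orange maternally expressed) and the genes named from the related lists (grey); filled circles passed the adjusted threshold and open diamonds did not. No member passed; Grb10 lies farthest from 0 among them at -0.98.

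The unfractionated WT HSC libraries, with 30889443, 21307178, 27206879 and 29952311 reads, form a single group in another unit and were described apart. Levels are CPM, the reads recovered from the deposited values scaled to a common library total, or CPM per kilobase where genes are compared. The order began as in the gated libraries with Ndn at 69.8 ± 16.3, H19 at 45.3 ± 21.2 and Grb10 at 17.1 ± 7.09 CPM per kb (SD, n = 4). Igf2, Meg3 and Dlk1 followed at 5.19 ± 3.06, 5.10 ± 3.97 and 4.79 ± 1.86, and Plagl1, Igf2r, Mest and Peg3 closed it at 2.02 ± 1.51, 1.15 ± 0.962, 0.485 ± 0.153 and 0.196 ± 0.390. The ranges of each pair of neighbours in this order overlapped. The order depends on the transcript lengths: with the longest transcript of each gene, Dlk1 stood at 1.75 and Meg3 at 0.665 CPM per kb, both below Plagl1.

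Library by library, Ndn stood at 105, 98.1, 103 and 155 CPM, H19 at 88.7, 166, 110 and 49.4 CPM, and Grb10 at 124, 103, 76.8 and 41.0 CPM. Igf2 stood at 6.41, 24.9, 16.3 and 34.9 CPM, and Dlk1 at 3.98, 8.26, 8.71 and 11.7 CPM. WT HSC library 4 was thus the highest for Ndn, Igf2 and Dlk1 and the lowest for H19 and Grb10. The low genes were detected unevenly. Igf2r had 648, 175, 313 and 10 reads, Meg3 334, 182, 512 and 16 reads, Plagl1 9, 199, 378 and 567 reads, and Peg3 1, 0, 185 and 0 reads, where a 0 allows up to 0.141 CPM in library 2 and 0.100 CPM in library 4. Mest was even, at 34, 16, 31 and 49 reads.

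The H19 level was 24.0, 11.5, 11.8 and 2.46 times that of Igf2 per kb in the 4 WT HSC libraries, and Meg3 was 2.44, 0.929, 1.94 and 0.0412 times Dlk1. With the longest transcripts the Meg3 to Dlk1 ratio was 0.869, 0.331, 0.691 and 0.0147, below 1 in every library. The fourth library was the lowest in both ratios with either length. All 4 maternally expressed members were at their lowest there, and 5 of the 6 paternally expressed members at their highest, with Peg3 the exception. This was noticed after the values were seen. Among the 11994 genes with at least 1 CPM on average, 41.2% were lowest and 26.7% highest in that library, which detected 11384 genes against 12909 to 13368 in the others and gave 15.2% of its reads to the ribosomal RNA entry Rn45s, against 3.06% to 5.26%. Of 13 further paternally expressed genes at that level, 8 were lowest and 3 highest in library 4, and of 21 further maternally expressed ones 9 were lowest and 4 highest. Cell type markers differed there too, though not all in the same direction. The hepatoblast and hepatocyte list summed to 34.8 CPM in library 4, against 102 to 116 CPM in the other 3. Most of that drop was Trf, at 12.5 CPM, against 75.8 to 79.1 CPM. Within that list Afp was also lowest in library 4, Hnf4a lay inside the range of the other 3, and Alb was highest, at 2.10 CPM, against 0 to 0.515 CPM. The liver endothelial list summed to 0.501 CPM in library 4, against 6.02 to 23.3 CPM. The mesenchymal list was highest there, at 12.1 CPM, against 0.0469 to 5.70 CPM. Nearly all of that was Pdgfra, at 12.0 CPM, against 0.0368 to 0.194 CPM. Col1a1, Col1a2 and Pdgfrb were each highest in another library, Col1a2 at 4.05 CPM in library 1 and Pdgfrb at 4.70 CPM in library 3. The part of this library's composition in the pattern was not tested.

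**Figure D4:**
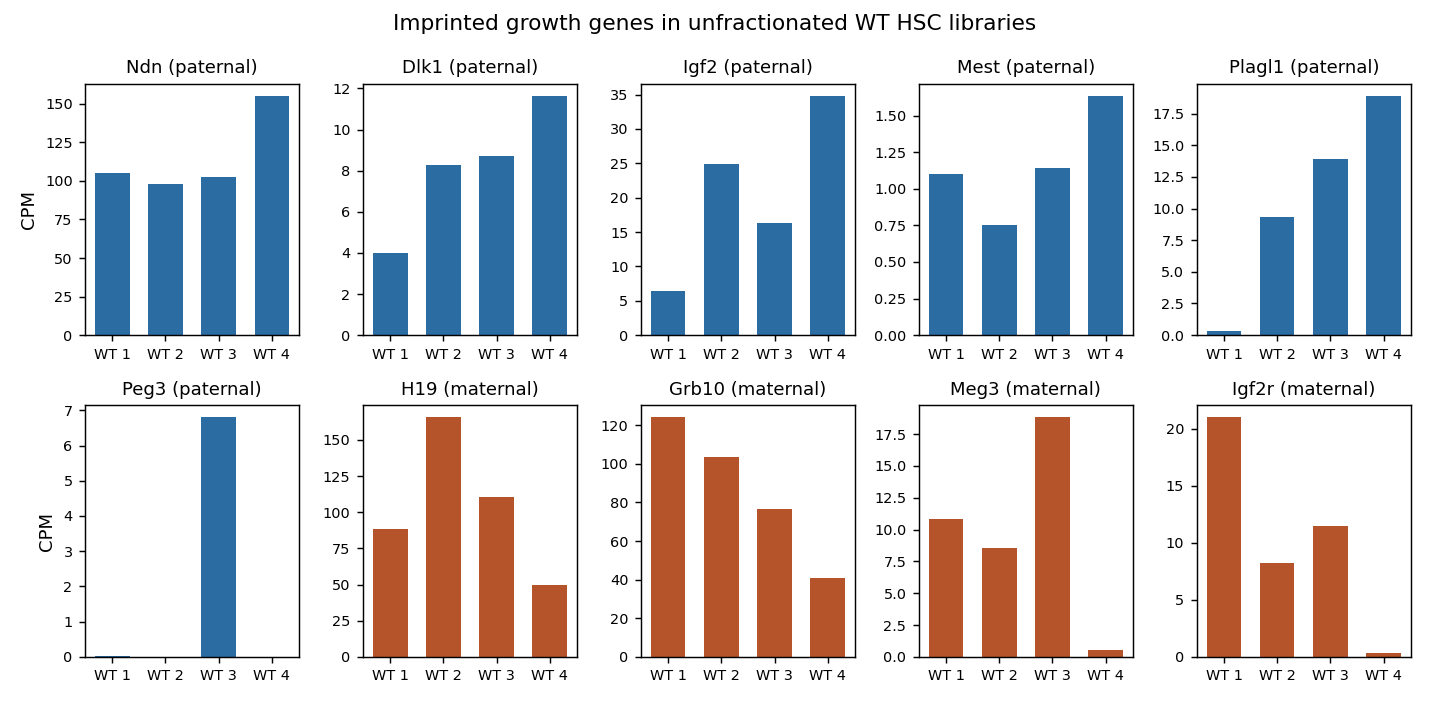
CPM of the 10 genes in each of the 4 WT HSC libraries (bars from 0, axes that differ between panels), blue for paternally and orange for maternally expressed genes. In WT HSC library 4 the 4 maternally expressed genes are at their lowest, and all paternally expressed genes but Peg3 at their highest.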

How the data were processed

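RNA was measured by Smart-seq2 in 11 libraries, grouped by their titles into FSC-A High (4), FSC-A Low (3) and WT HSC (4). The deposited gated files give RPKM per RefSeq transcript, scaled by the authors for depth and length. No header names the unit. It was inferred: read as RPKM, the chosen transcripts would account for 67.3% to 72.5% of each library's reads. STAR, DESeq2 and the build mm10 appear in the submitters' processing notes, with roles and versions not given in the sources used here. The deposited WT HSC files give a signal per gene symbol, which behaves as reads divided by 1 size factor per library: 100% of values became whole reads within 0.01. No count test was run on these reads, since they form 1 group. Gated depth was estimated from the step between low values, 62.2% to 69.1% of which became whole reads within 0.05, so read numbers there are estimates.

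Symbols and coordinates came from NCBI's GRCm38.p6 table and lengths from GENCODE M21, capped at the NCBI gene span (this set Ndn to 1652 bases); H19 took its longest GENCODE transcript. The gated groups were compared over all 10619 genes passing the filter with limma 3.58.1 in R 4.3.3 (intensity trend) on log2(RPKM + 1), which understates the change of low genes, and ratios with exact permutation tests (scipy 1.17.1). Intervals of limma are 95%. Alternatives were 4 other scalings (TMM from edgeR 4.0.16), pseudocounts of 0.5 and 5, other filters and transcript summaries, a spline (5 degrees of freedom) over length and GC removed, sample weights, no intensity trend, the replicate block and each library left out. The fit was checked on simulated data. Named genes were all members and, from each list, up to 4 called genes with the smallest p (2 where none was called); further genes were named after their values were seen. Members and lists were chosen with earlier results of these data known. The limma intervals rest on the spread between libraries, the upper limits for a count of 0 cover counting error only, and RPKM says nothing of RNA per cell. The summed level of the HSC marker list is not reported here.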

Additional observations from a re-analysis of the deposited data

Results flagged for a closer look

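In groups of 4 libraries, the members and the genes named from the lists were examined for a single library far from the other 3; chance alone gives such a library in about 1 group in 20. Mest stood out at 5.80 RPKM in FSC-A High library 3, where the other 3 FSC-A High libraries held 0.0957 to 0.171 RPKM. Peg3 stood out at 0.583 RPKM in FSC-A High library 4, with 0.0253 to 0.0672 RPKM in the others, and at 6.80 CPM in WT HSC library 3, with 0 to 0.0324 CPM in the others. Grb10 stood out at 11.3 RPKM in FSC-A High library 1, with 6.34 to 7.05 RPKM in the others. Ndn stood out at 155 CPM in WT HSC library 4, with 98.1 to 105 CPM in the others.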

How the results depend on the processing

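No member that entered the test passed as higher under any of the 21 alternatives of the limma fit; Igf2r, Peg3, Mest and Plagl1 entered only the fit without a filter on low values. Grb10 was the only one to pass as lower, which made the count of members called lower 1 with library totals as the scale (-1.27, adjusted p = 0.0244), with a filter at 5 RPKM (0.0469) and with sample quality weights (0.0475); with 1 library left out that count lay between 0 and 1. Its log2 difference was negative throughout, from -1.41 to -0.53. H19 stayed positive (0.24 to 0.75), Dlk1 and Meg3 negative, while Ndn ranged from -0.39 to 0.10. Over all genes, 978 were higher and 2272 lower with library totals as the scale and 996 were higher with the length and GC trend removed, in place of 1657 higher and 1245 lower; with 1 library left out, 1302 to 1628 were higher and 879 to 1152 lower. The cause was not tested. With the length of the longest transcript, which differs from that of the transcript used, the WT HSC level was 1.75 CPM per kb for Dlk1 and 0.665 for Meg3. None of the 3 ratios passed with another pseudocount or with summed transcripts, where again a single ratio alone could not have passed after adjustment. With a library left out no ratio could pass, since the smallest p is then 0.1 (3 against 3) or 0.0667 (4 against 2); the Meg3 to Dlk1 difference ran from -0.38 to 0.15 and the Igf2r to Igf2 difference from -0.66 to 0.10. With the replicate number as a block, the Grb10 difference was -0.92 (adjusted p = 0.157), 2 of the 13 imprint and insulator factors were lower and the Mir1906 entries did not pass (0.0991). Same-numbered libraries showed correlations of -0.03, 0.06 and 0.00 of their deviations from the group means. No sign of pairing by number was seen, though so few libraries cannot exclude it. Low read numbers were most frequent for Plagl1, Peg3 and Mest, with 0 to 64 estimated reads in several libraries. Plagl1 had 436 in FSC-A High library 1, of the lowest estimated depth, and 7 in FSC-A Low library 2, of the highest. The part of depth in these numbers was not tested.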

Other observations

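Igf1, the ligand that shares a receptor with Igf2, was also uneven in the WT HSC libraries, at 36.1, 58.8, 62.1 and 2.50 CPM, and its receptor gene Igf1r stood at 111, 108, 68.4 and 57.1 CPM. Cdkn1c stood at 127, 74.4, 60.1 and 115 CPM and Gnas at 844, 965, 1005 and 1252 CPM in the same libraries. Airn stood at 0.615, 4.65, 14.2 and 12.1 CPM.

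Genes that reach 5 units and stand at least 10 times above every other library were few in the gated set, from 0 to 4 per library in RPKM, and more frequent in the WT HSC set, with 16, 37, 33 and 60 per library in CPM. The members among them were Mest in FSC-A High library 3 and Peg3 in WT HSC library 3.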
